A study of Mus musculus with 14 samples.

Results

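The comparison described here is the effect of a high-fat diet on adipocytes of the inguinal fat pad, the main subcutaneous white fat of the mouse. The high-fat-diet group (HFD) and the normal-diet group (ND) were male mice on the C57BL/6 background, given HFD or regular chow for 16 weeks after weaning at 3 weeks of age. Pads were minced, digested with collagenase for 20 min and spun, and poly(A) RNA of the floating adipocyte layer was sequenced. Each group held 3 libraries, numbered 0, 1 and 2, and each library pooled tissue from 3 to 5 mice, so the spread between libraries is the spread between pools. The series design calls them biological triplicates. These 6 libraries were part of a series of 14, which also held epididymal and brown adipocytes, and of the 38553 genes in each file the 13893 with at least 0.5 FPKM in at least 3 of the 6 libraries were tested. FPKM counts fragments relative to transcript length and to the size of the library, and all differences below are HFD minus ND on the log2(FPKM + 0.5) scale, which understates the change of low genes.

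White adipocytes store triglyceride in a single large droplet and grow when energy intake exceeds use. Growing fat cells secrete more leptin, the hormone that reports fat stores to the brain, and are known to express markers of expansion such as the imprinted gene Mest and the Wnt antagonist Sfrp5. In obesity the tissue around them remodels its matrix and gathers macrophages that take up lipid. The inguinal pad also encloses a lymph node, and a floating layer can carry vessels, progenitors and leukocytes along with adipocytes.

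The levels of adipocyte and other cell markers were compared before the diet groups were. Adipocyte genes were high in every library: Adipoq, which encodes the adipocyte hormone adiponectin, stood at 1521, 1811 and 2035 FPKM in HFD libraries and at 919, 2015 and 994 FPKM in ND libraries. Markers of B and T lymphocytes, 39 genes in all, summed to 43.6, 44.6 and 24.5 FPKM in HFD libraries 0, 1 and 2, and to 1449, 191 and 2279 FPKM in ND libraries 0, 1 and 2. Every ND library lay above every HFD library, and ND replicate 1 was nearest to HFD. Markers of mammary epithelium and mesothelium were close to 0 in all 6 libraries, with sums of at most 1.45 FPKM, and no member of either list passed the expression filter.

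ND replicate 1 also stood apart from ND replicates 0 and 2 in RNA of mitochondria and ribosomes. For red cell markers it was the lowest ND library, but replicates 0 and 2 also differed from each other. Their mean log2 levels were 4.66, 3.44 and 6.62 in ND libraries 0, 1 and 2, and 1.56, 2.69 and 2.37 in HFD libraries. Mitochondrial mRNA made up 26.9%, 29.1% and 35.2% of protein-coding FPKM in HFD libraries and 52.1%, 20.6% and 60.7% in ND libraries. The mean log2 level of 37 cytosolic ribosomal protein and elongation factor genes was 6.49, 6.92 and 6.75 in HFD libraries and 8.61, 7.41 and 8.64 in ND libraries. The mean level of 25 adipocyte identity genes was 6.45, 6.55 and 6.65 in HFD libraries, against 5.91, 6.72 and 5.71 in ND libraries. ND replicate 1 was thus the highest of the 6 in adipocyte identity genes and the lowest of the ND libraries in lymphocyte genes, so most groups of genes below are also given with ND replicate 1 as the only normal-diet library. In bulk RNA such as this, fewer cells of a type and less RNA per cell cannot be told apart. Across genes, Spearman's rho was 0.960 to 0.966 among HFD libraries and 0.836 to 0.897 among ND libraries.

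**Figure D1:**
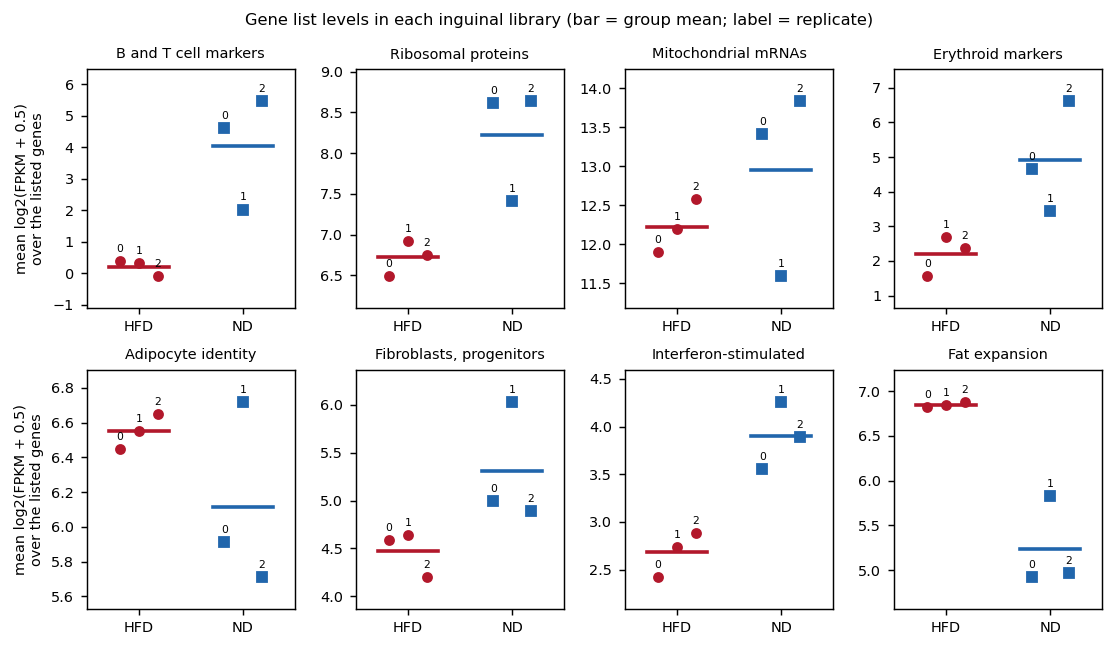
Mean log2(FPKM + 0.5) of 8 gene lists in each of the 6 inguinal libraries, HFD as red circles and ND as blue squares, labelled by replicate number, with the group mean as a bar. ND replicate 1 lies between the HFD libraries and the other ND libraries for B and T cell markers (2.02), and is the highest of the 6 libraries for adipocyte identity (6.72), fibroblast (6.03) and interferon-stimulated genes (4.26).

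With limma on the 6 libraries, 1015 genes passed a Benjamini-Hochberg adjusted p of 0.05, which is 7.31% of the 13893 tested. Of these, 518 (3.73%) were higher in HFD and 497 (3.58%) were lower, and 473 and 478 of them differed by at least 2-fold. None of the 1015 overlapped between the groups, against 34.4% of all tested genes without overlap. ND replicate 1 was the lowest ND library for 355 of the 497 lower calls, compared with 4243 of all 13893 genes, and the highest for 378 of the 518 higher calls, compared with 5827 of all 13893. When ND replicate 1 was the only normal-diet library, 438 genes were higher (2.93% of 14959) and 561 lower (3.75%). The spread for this fit came from the white libraries without inguinal ND replicates 0 and 2, so none came from inguinal ND libraries. That fit, which assumes that a lone library varies like the others, called 307 of the 518 higher and 247 of the 497 lower genes again. Since the calls had no overlap between groups, their direction against ND replicate 1 was fixed and is not a second test.

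**Figure D2:**
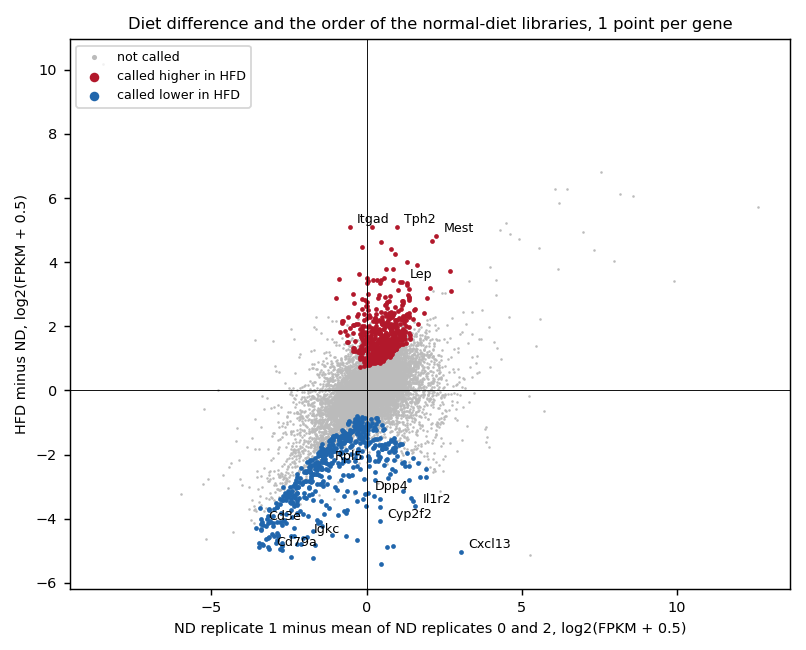
Each point is 1 of the 13893 genes tested. The horizontal axis is the log2 level in ND replicate 1 minus the mean of ND replicates 0 and 2, the vertical axis is HFD minus ND, both on the log2(FPKM + 0.5) scale, and called genes are coloured. Lower calls trail to the left, where ND replicate 1 lay below the other ND libraries (median -0.92), while Cyp2f2, Dpp4, Il1r2 and Cxcl13 lie to the right of 0 or near it.

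The number of calls depended on which libraries were used. Leaving out HFD replicate 0, 1 or 2 left 34, 33 and 50 calls. Leaving out ND replicate 0 or 2 left 215 and 492, and leaving out ND replicate 1 gave 3301, among them 1014 of the 1015. Taking the spread from all 12 white libraries gave 1391 higher and 1523 lower genes, among them 517 and 496 of those called here. With the lymphocyte level of each library as a covariate limma called 0 genes, with 1668 at an unadjusted p under 0.05. That level, a mean log2 over the markers, was 0.39, 0.31 and -0.10 in HFD libraries and 4.61, 2.02 and 5.47 in ND libraries. It nearly repeated the diet groups, so that fit could hardly separate diet from lymphocyte level, and no conclusion is drawn from it. Only 20 higher and 9 lower genes were called in every one of the 6 fits that left out a library. Those with values below are said to be called in all 6 leave-one-out fits, and most other named genes lost their call in at least 1 of those fits.

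Lep, the gene of leptin, and several genes linked to the growth of fat cells were higher in HFD. Lep (chr6:29060221-29073876 on GRCm38.p6) stood at 1230.2, 1394 and 1184 FPKM in HFD libraries and at 98.1, 207 and 87.6 FPKM in ND libraries. The lowest HFD library was far above the highest ND library, which was replicate 1. The log2 difference was 3.38 (SE 0.37, limma adjusted p = 0.0081, n = 3 each), and it was 2.61 against ND replicate 1 alone (adjusted p = 0.00034). The call was kept in 3 of the 6 leave-one-out fits, where the adjusted p reached 0.068.

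Mest, an imprinted gene whose level tracks fat expansion, stood at 539.7, 469 and 362 FPKM in HFD libraries and at 11.7, 44.8 and 6.95 FPKM in ND libraries (log2 difference 4.82, SE 0.60, adjusted p = 0.011). Sfrp5, a secreted inhibitor of Wnt signalling, had 132, 140.4 and 137 FPKM in HFD libraries and 3.64, 13.8 and 2.15 FPKM in ND libraries (4.66, SE 0.56, adjusted p = 0.0096). For both genes the ND libraries spread more widely on the log2 scale than the HFD libraries did, and ND replicate 1 was the highest of them. Npr3, the clearance receptor that removes natriuretic peptides, was nearly constant within HFD at 300.2, 290.2 and 299.9 FPKM, against 53.4, 67.6 and 45.2 FPKM in ND libraries (2.43, SE 0.22, adjusted p = 0.0041). It was called in all 6 leave-one-out fits. Trp53inp2, which acts in autophagy and nuclear receptor signalling, was 2.67 higher (SE 0.40, adjusted p = 0.015). In all, 8 of the 15 tested members of the fat expansion list rose and 0 fell, with a median of 1.14 beside 0.00 over all genes, and 6 of the 15 were called higher against ND replicate 1 alone. Peg3, Cavin2, Bmp3 and Fgf13 were the others, with differences of 1.99, 1.14, 2.00 and 2.55, and Fgf13 was also called in all 6 leave-one-out fits, while Cav1, Cavin1 and Igf1 were among the 7 that did not pass.

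**Figure D3:**
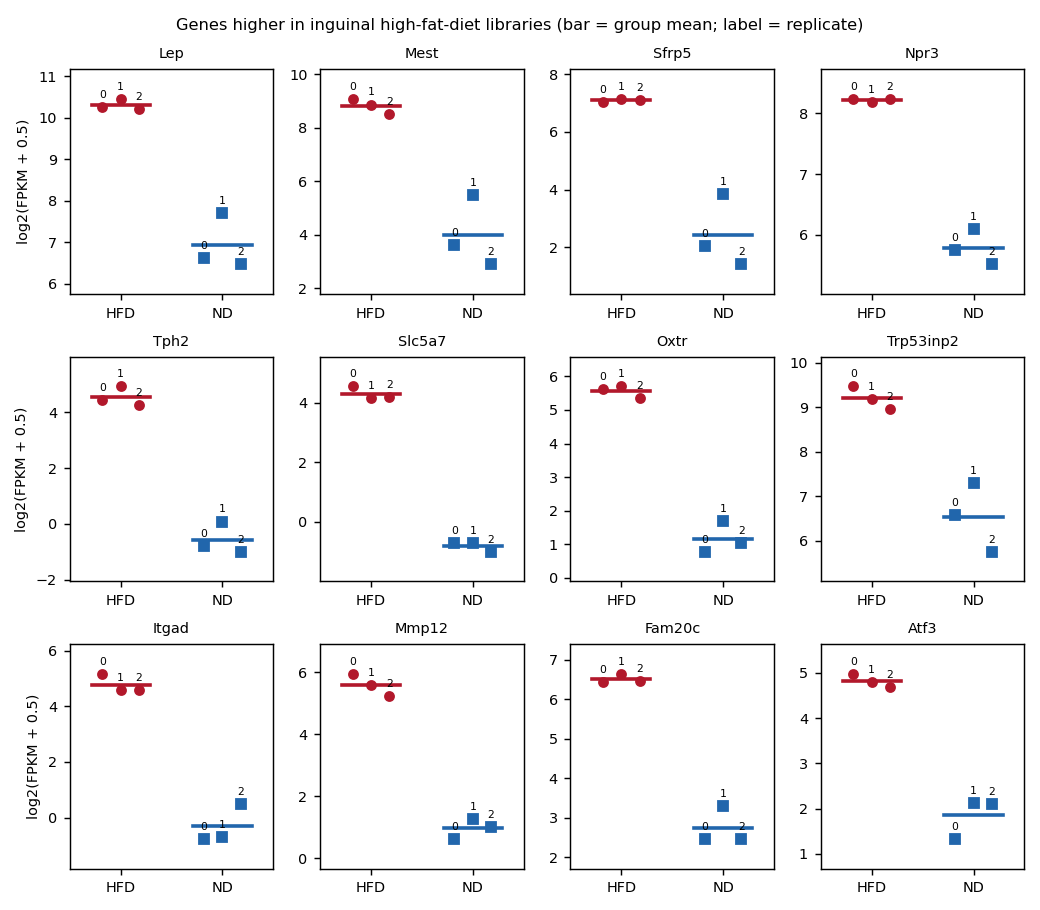
log2(FPKM + 0.5) of 12 genes called higher in HFD, 1 point per library, HFD as red circles left of ND as blue squares, with the group mean as a bar and the replicate number beside each point. No gene overlaps between the groups, and ND replicate 1 is the highest ND library for Lep, Mest and Sfrp5.

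Other secreted factors split. Of 19 adipokines and secreted factors tested, Lep among them, 5 rose and 1 fell (median 0.76), and 4 were called higher and 3 lower against ND replicate 1 alone (median 0.06). Apln, the peptide hormone apelin, and Gdf15, a stress-induced hormone, were 1.55 and 2.23 higher. Agt, the precursor of angiotensin, was lower, at 1.50, 3.09 and 4.89 FPKM in HFD libraries and 10.8, 28.5 and 25.5 FPKM in ND libraries (-2.59, SE 0.48, adjusted p = 0.027). Adipoq (0.54, SE 0.47, adjusted p = 0.50) and Retn, which encodes resistin (0.18, SE 0.41, adjusted p = 0.82), did not pass the test. Cfd, the serum protease adipsin, had 1878, 1815 and 3587 FPKM in HFD libraries and 6429, 15126 and 7208 FPKM in ND libraries. Its groups did not overlap but it did not pass (-1.95, SE 0.75, adjusted p = 0.14), and against ND replicate 1 alone it was -2.71 (adjusted p = 0.019).

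Tph2, Itgad and Slc5a7 had the largest differences among the higher genes named by size. Tph2 (chr10:115078641-115185022), the neuronal enzyme that makes the serotonin precursor, stood at 21.3, 29.9 and 18.6 FPKM in HFD libraries and at 0.0815, 0.559 and 0 FPKM in ND libraries (5.11, SE 0.36, adjusted p = 0.0019). Slc5a7 (chr17:54273590-54299038), the high-affinity choline transporter of cholinergic neurons, had 22.9, 17.3 and 17.7 FPKM in HFD libraries and 0.112, 0.117 and 0 FPKM in ND libraries (5.10, SE 0.27, adjusted p = 0.0014). Oxtr, the oxytocin receptor, had 48.4, 51.6 and 40.8 FPKM in HFD libraries and 1.21, 2.71 and 1.54 FPKM in ND libraries (4.40, SE 0.28, adjusted p = 0.0014). None of the 3 genes exceeded 2.71 FPKM in an ND library, ND replicate 1 included, and all 3 were called in all 6 leave-one-out fits. Slc5a7 lay under 0.5 FPKM in every ND library and passed the expression filter only through the HFD libraries. It could therefore not have been called lower in any of these fits.

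Also called in all 6 leave-one-out fits were Lipf, gastric lipase (4.47, SE 0.35, adjusted p = 0.0023), Kcnj14, an inwardly rectifying potassium channel (4.25, SE 0.31, adjusted p = 0.0019), Bpifb6 (3.79, SE 0.35, adjusted p = 0.0041) and Fam20c, the Golgi kinase of secreted proteins. Fam20c had 85.9, 100.1 and 87.6 FPKM in HFD libraries and 5.01, 9.38 and 5.02 FPKM in ND libraries (3.77, SE 0.27, adjusted p = 0.0019). Dnmt3l, a cofactor of de novo DNA methyltransferases, was 3.51 higher (SE 0.41, adjusted p = 0.0096) and kept its call in 4 of the 6 leave-one-out fits. Lipf, Bpifb6 and Dnmt3l also lay under 0.5 FPKM in every ND library. They passed the filter only through the HFD libraries and could not have been called lower. S100b, a calcium-binding protein of glia that adipocytes also express, was 3.63 higher (SE 0.48, adjusted p = 0.012). Of the other tested markers of Schwann cells, Egr2 also rose, and Mbp and Prx did not pass.

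Of 25 adipocyte identity genes and transcription factors, 0 rose and 0 fell, with 6 at an unadjusted p under 0.05 in limma and a median of 0.47. The count turned on 1 library: without ND replicate 1, 10 of the 25 were called higher (median 0.83), beside 1711 of all 13893 genes. Against ND replicate 1 alone the median was -0.18. Among the 25 were Plin1, Fabp4, Pparg, Cebpa and Lipe. Enzymes of fatty acid synthesis were mostly not called: 4 of 19 tested rose and 0 fell, with a median of 0.25, and 4 were called higher and 1 lower against ND replicate 1 alone (median -0.01). Scd2, a stearoyl-CoA desaturase, stood at 94.7, 124 and 102 FPKM in HFD libraries and at 33.0, 16.0 and 24.0 FPKM in ND libraries (2.16, SE 0.28, adjusted p = 0.012), and here ND replicate 1 was the lowest library. Its paralogue Scd1 had 3810.1, 3909 and 5024 FPKM in HFD libraries and 3789, 4234 and 2794 FPKM in ND libraries, with overlapping groups (0.25, SE 0.62, adjusted p = 0.83). Fasn, fatty acid synthase, also overlapped (0.47, SE 0.30, adjusted p = 0.34). Malic enzyme Me1 (1.34) and the lipid droplet protein gene Pnpla3 (1.65) rose.

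Of 23 genes of triglyceride assembly and lipid droplets tested, 6 rose and 0 fell, with a median of 0.87, while 1 was called higher and the median was 0.19 with ND replicate 1 alone. Dgat2, which makes the last step of triglyceride synthesis, had 1374, 1517 and 1338 FPKM in HFD libraries and 354, 555 and 237 FPKM in ND libraries (1.97, SE 0.39, adjusted p = 0.031), and it was the member called in both fits (1.34, adjusted p = 0.012 against ND replicate 1). Mogat2, a monoacylglycerol acyltransferase (2.36), and Hilpda, an inhibitor of adipose triglyceride lipase (1.49), rose, while Plin1, Plin2 and Cidec did not pass. Of 15 fatty acid uptake genes, 2 rose and 0 fell, as they did against ND replicate 1 alone. Vldlr, the receptor for very low density lipoprotein, averaged 58.4 ± 11.3 FPKM in HFD libraries and 11.5 ± 3.64 FPKM in ND libraries (SD, n = 3 each; difference 2.33, SE 0.28, adjusted p = 0.0096), while Cd36 and Lpl did not pass.

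Of 21 fatty acid oxidation genes, 4 rose and 0 fell (median 0.89), and 3 were called higher against ND replicate 1 alone (median 0.31). Cpt1a, the mitochondrial gatekeeper of fatty acid entry in most tissues, had 35.5, 37.0 and 28.4 FPKM in HFD libraries and 16.6, 15.6 and 17.6 FPKM in ND libraries (0.99, adjusted p = 0.029). Cpt1b, its muscle and brown fat form, was 2.92 higher (SE 0.62, adjusted p = 0.038). No nuclear-encoded respiratory chain gene passed in limma (0 of 36, with 7 at an unadjusted p under 0.05, median 0.38), nor did any of 21 genes that break down branched-chain amino acids (3 at an unadjusted p under 0.05, median 0.29) or 16 of glycolysis (6 at an unadjusted p under 0.05, median 0.37). Against ND replicate 1 alone these 3 lists had medians of 0.05, -0.26 and 0.32. Without that library 12, 8 and 7 of their genes were called higher and 0, 1 and 0 lower, beside 1711 higher and 1590 lower of all 13893 genes. The 12 mitochondrially encoded mRNAs had a median of -0.66, with 0 calls and 0 at an unadjusted p under 0.05. The sign of that median turned on 1 library, since it was 0.67 against ND replicate 1 alone and -1.38 without that library, with 0 calls in both. With the spread of 12 white libraries, 3 adipocyte identity, 3 respiratory chain and 4 glycolysis genes were called higher. In that fit 1 gene of branched-chain amino acid breakdown was called each way, and 0 mitochondrially encoded mRNAs were called. Of all 13893 genes it called 1377 higher and 1489 lower, so such small counts do not set these lists apart. Of 17 genes of insulin signalling (median 0.13, and -0.29 against ND replicate 1 alone), 1 rose and 0 fell. It was Grb14, an adaptor that inhibits the insulin receptor, at 72.2, 73.0 and 77.5 FPKM in HFD libraries and 13.3, 21.1 and 10.1 FPKM in ND libraries (2.35, SE 0.27, adjusted p = 0.0090). In the lipolysis list, the monoacylglycerol lipase gene Mgll and Npr3 rose and the guanylyl cyclase receptor for natriuretic peptides, Npr1, fell. Npr1 had 5.76, 8.13 and 10.0 FPKM in HFD libraries and 16.7, 22.6 and 30.5 FPKM in ND libraries (-1.48, SE 0.30, adjusted p = 0.032), the opposite direction to Npr3.

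Genes of cholesterol synthesis and uptake were higher in HFD. Of 24 tested, 9 rose and 0 fell, with a median of 1.03, and with ND replicate 1 alone 8 were called higher (median 0.83), 6 of them among the 9. Hmgcs1 (chr13:119690351-119708260), which makes HMG-CoA early in the pathway, stood at 211, 221 and 195 FPKM in HFD libraries and at 34.9, 79.2 and 26.0 FPKM in ND libraries (2.31, SE 0.39, adjusted p = 0.021). The groups were far apart, and ND replicate 1 was the highest ND library. Insig1, the sterol-sensing brake of the pathway (1.59), and the enzyme genes Mvk, Idi1, Cyp51, Nsdhl and Sc5d (0.92 to 1.51) also rose. Sqle, Fdft1 and the regulator Srebf2 were among the 15 that did not pass.

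Genes of this pathway are bound by SREBP proteins through sterol regulatory elements. The letters TCACNCCAC, searched on both strands in the 250 bases before the RefSeq start of each gene, were found in 1 of the 7 called members with a promoter in the table, Hmgcs1, starting 137 bases before its start. They occur in 1.04% of all 27025 promoters. The promoter of Hmgcs1, chr13:119690101-119690350 on the plus strand of GRCm38.p6 from RefSeq, is shown because its gene rose most in this list, with the match in capitals.
Hmgcs1: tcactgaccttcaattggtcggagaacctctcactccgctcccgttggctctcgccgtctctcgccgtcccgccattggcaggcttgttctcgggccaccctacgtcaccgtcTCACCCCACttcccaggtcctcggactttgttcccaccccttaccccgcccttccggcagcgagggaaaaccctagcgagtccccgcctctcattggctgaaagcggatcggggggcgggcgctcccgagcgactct

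Several collagen genes rose, some of them genes of the basement membrane. Of 18 collagens tested, 5 rose and 0 fell (median 1.42), whereas against ND replicate 1 alone 3 were called higher and 3 lower (median 0.34). Col15a1, a basement membrane collagen, had 303, 296 and 237 FPKM in HFD libraries and 30.5, 56.3 and 42.9 FPKM in ND libraries (2.71, SE 0.27, adjusted p = 0.0049). Col18a1, the source of endostatin, had 65.6, 88.6 and 82.4 FPKM in HFD libraries and 10.3, 27.5 and 12.1 FPKM in ND libraries (2.34, SE 0.36, adjusted p = 0.017), and Col16a1 was 2.60 higher (SE 0.37, adjusted p = 0.014). Col4a2 (1.71) and Col5a3 (2.21) rose as well, but neither was called against ND replicate 1 alone (adjusted p = 0.19 and 0.11). Col1a1, Col3a1 and Col6a3 did not pass. Of 28 other matrix genes, 3 rose, among them Hspg2, the basement membrane proteoglycan perlecan (1.60, SE 0.23, adjusted p = 0.014), and the protease gene Adamts1 (1.62, SE 0.31, adjusted p = 0.030). In each of these 28 genes ND replicate 1 was the highest ND library, and against it alone 3 were called higher and 7 lower. The collagen receptor gene Mrc2 had 44.1, 41.2 and 31.5 FPKM in HFD libraries and 1.76, 3.92 and 0.942 FPKM in ND libraries, a 17.6-fold higher mean in HFD (adjusted p = 0.0056).

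Markers of lipid-associated macrophages, which gather around dying fat cells, had 9 of 19 higher and 1 lower (median 1.37), and 6 higher and 1 lower with ND replicate 1 alone (median 0.80). Mmp12, macrophage elastase, had 61.4, 47.7 and 37.1 FPKM in HFD libraries and 1.04, 1.92 and 1.53 FPKM in ND libraries (4.62, SE 0.28, adjusted p = 0.0014). Itgad, the integrin subunit CD11d of tissue macrophages, was in no marker list and was named by size. It had 35.6, 23.7 and 23.4 FPKM in HFD libraries and 0.0867, 0.124 and 0.906 FPKM in ND libraries (5.10, SE 0.40, adjusted p = 0.0023). Both Mmp12 and Itgad were called in all 6 leave-one-out fits. Itgax (CD11c), a marker of dendritic cells and of macrophages in obese fat, was in both of those lists and is among the 9. It had 6.17, 6.34 and 4.62 FPKM in HFD libraries and 1.49, 0.674 and 1.78 FPKM in ND libraries (1.82, SE 0.34, adjusted p = 0.027). The other 5 tested members of the dendritic cell list had negative differences and did not pass (median of the 6, -0.44). In the lipid-associated macrophage list, Atp6v0d2, a proton pump subunit of macrophages and osteoclasts (3.46), Gpnmb (2.21) and Rgs1 (2.34) also rose.

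The exception in this list was Spp1, osteopontin, which fell to 1.00, 1.04 and 0.536 FPKM in HFD libraries, against 4.73, 11.8 and 10.5 FPKM in ND libraries (-2.73, SE 0.39, adjusted p = 0.014). Of 22 general macrophage markers, 0 were called higher and 2 lower, with 7 at an unadjusted p under 0.05 in limma and a median of 0.09. Against ND replicate 1 alone 0 were higher and 3 lower, with a median of -0.75. Adgre1, which encodes F4/80, had 12.5, 13.7 and 10.7 FPKM in HFD libraries and 3.62, 8.71 and 4.96 FPKM in ND libraries, without overlap but short of the threshold (1.11, SE 0.32, adjusted p = 0.076). Timd4, a marker of long-lived resident macrophages, fell (-1.79, SE 0.41, adjusted p = 0.045), as did Ptprc, the pan-leukocyte gene CD45, which stood at 84.4, 19.3 and 156 FPKM in ND libraries in the order of their lymphocyte levels. Of 24 chemokines and cytokines, Cxcl2 rose and Ccl5, Cxcl12 and Il18 fell (median 0.17), and 0 were called higher and 3 lower against ND replicate 1 alone (median -0.79). Cxcl12, the homing signal of leukocytes and progenitors, had 29.3, 35.8 and 29.5 FPKM in HFD libraries and 68.0, 71.1 and 72.1 FPKM in ND libraries (-1.15, SE 0.18, adjusted p = 0.016), with ND replicate 1 between the other ND libraries.

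Lymphocyte genes made up most of the largest differences in the other direction. Of 17 B cell markers 13 were lower and 0 higher (median -4.03), and of 22 T cell markers 12 were lower and 0 higher (median -3.72). Cd79a, a signalling chain of the B cell receptor, had 2.78, 2.40 and 1.55 FPKM in HFD libraries and 166, 19.1 and 178 FPKM in ND libraries (-4.96, SE 0.80, adjusted p = 0.018). Cd3e, a chain of the T cell receptor complex, had 0.892, 0.711 and 0.300 FPKM in HFD libraries and 30.3, 3.58 and 61.2 FPKM in ND libraries (-4.16, SE 0.90, adjusted p = 0.039). For each of these 39 markers ND replicate 1 was the lowest ND library, and 9 B cell and 10 T cell markers were called lower against it alone, with medians of -1.84 and -1.72.

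Among 84 tested genes whose symbols begin like those of immunoglobulin and T cell receptor genes, 43 were lower and 0 higher. The match by symbol was loose and can take in other genes, such as Tradd. Several variable region genes, among them Igkv8-30 and Ighv1-82, were listed at 0 in all HFD libraries. Such genes passed the expression filter only through the ND libraries, so they could not be called higher. Igkv8-30 stood at 13.5, 25.5 and 25.2 FPKM and Ighv1-82 at 35.8, 7.90 and 21.0 FPKM in ND libraries, and no fold is given for them. Both were called in all 6 leave-one-out fits, and Igkv8-30 was highest in ND replicate 1. Igkc, the kappa light chain, had 29.6, 19.1 and 25.3 FPKM in HFD libraries and 1097, 241 and 769 FPKM in ND libraries (-4.57, SE 0.53, adjusted p = 0.0090). Genes of this family share sequence, so reads may be split between its members.

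Cxcl13, which B cell follicles use to attract B cells, did not follow the order of the B and T cell markers. It had 0.207, 0 and 0.811 FPKM in HFD libraries and 12.3, 104 and 11.8 FPKM in ND libraries (-5.04, SE 0.83, adjusted p = 0.020), so ND replicate 1, the lowest in lymphocyte markers, was the highest for it. Of 7 lymph node stroma and lymphatic markers tested, Clu also fell and 5 did not pass, and the lymphatic chemokine gene Ccl21a was one of those 5. ND replicate 1 was the highest ND library for 4 of the 7, and 4 were called lower against it alone. Of 10 MHC class II genes (median -1.70, and -0.30 against ND replicate 1 alone), H2-Ob and H2-DMb2 fell and Cd74, H2-Aa and H2-Ab1 did not pass.

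Ribosomal protein genes were lower in HFD as a list. All 37 tested members had negative differences (median -1.48). In limma all 37 had an unadjusted p under 0.05, beside 3805 of all 13893 genes, and 9 passed the adjusted test. The count was 3 with the replicate number as a block, 36 with the spread of 12 white libraries and 36 without ND replicate 1. As for the lymphocyte markers, ND replicate 1 was the lowest ND library for each of the 37. Rpl5 had 26.8, 30.2 and 25.1 FPKM in HFD libraries and 238, 75.0 and 136 FPKM in ND libraries (-2.28, SE 0.39, adjusted p = 0.023). Against ND replicate 1 alone 1 of the 37 was called, Rpl5, and the median was -0.64. Among all 84 tested genes with Rpl or Rps symbols, 18 fell and 1 rose. Hba-a1, an alpha globin gene of red cells, had 2.74, 12.7 and 10.5 FPKM in HFD libraries and 218, 32.5 and 569 FPKM in ND libraries (-4.36, SE 1.01, adjusted p = 0.046), the order of ND libraries being that of the lymphocyte level, and was not called against ND replicate 1 alone (adjusted p = 0.14).

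Some of the lower genes did not follow the lymphocyte level. Of the 497 lower calls, 103 had a level in ND replicate 1 at or above the mean of the other ND libraries. Such a level was less common among lower calls than among all genes tested. The median of ND replicate 1 minus that mean was -0.92 over the lower calls and 0.10 over all genes, on the log2 scale. Cyp2f2 (chr7:27119955-27133660), a cytochrome P450 of xenobiotic metabolism, had 3.34, 3.55 and 6.83 FPKM in HFD libraries and 70.0, 99.1 and 78.3 FPKM in ND libraries (-4.08, SE 0.29, adjusted p = 0.0019). Penk, the precursor of the enkephalin opioid peptides, had 0.201, 0.151 and 0.0371 FPKM in HFD libraries and 6.63, 8.96 and 6.47 FPKM in ND libraries (-3.64, SE 0.30, adjusted p = 0.0032). Plac8, a cysteine-rich protein of leukocytes and other cells, had 2.96, 1.95 and 0.772 FPKM in HFD libraries and 60.5, 94.0 and 44.5 FPKM in ND libraries (-4.85, SE 0.42, adjusted p = 0.0041). In these 3 genes the ND libraries lay close together and ND replicate 1 was the highest, and all 3 were called in all 6 leave-one-out fits.

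Enzymes of drug and steroid metabolism, the list of Cyp2f2, had 4 of 21 lower and 1 higher (median -0.32), and 5 lower and 1 higher against ND replicate 1 alone (median -0.57). Cyp2e1, an ethanol and fatty acid hydroxylase, had 89.5, 145 and 245 FPKM in HFD libraries and 906, 1892 and 605 FPKM in ND libraries (-2.78, SE 0.52, adjusted p = 0.028). Hsd11b1, which regenerates active glucocorticoid inside cells, had 40.9, 29.1 and 43.5 FPKM in HFD libraries and 112, 179 and 82.2 FPKM in ND libraries (-1.65, SE 0.32, adjusted p = 0.030). Cyp2d22 fell as well (-1.02), and Aldh1a7 was 1.72 higher (SE 0.27, adjusted p = 0.016). The plasma glutathione peroxidase gene Gpx3 had 35.4, 39.3 and 105 FPKM in HFD libraries and 282, 425 and 207 FPKM in ND libraries (-2.46, SE 0.46, adjusted p = 0.028). Among antioxidant genes it was the only one of 21 that fell, and Sod3, extracellular superoxide dismutase, rose (1.61, SE 0.35, adjusted p = 0.040).

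**Figure D4:**
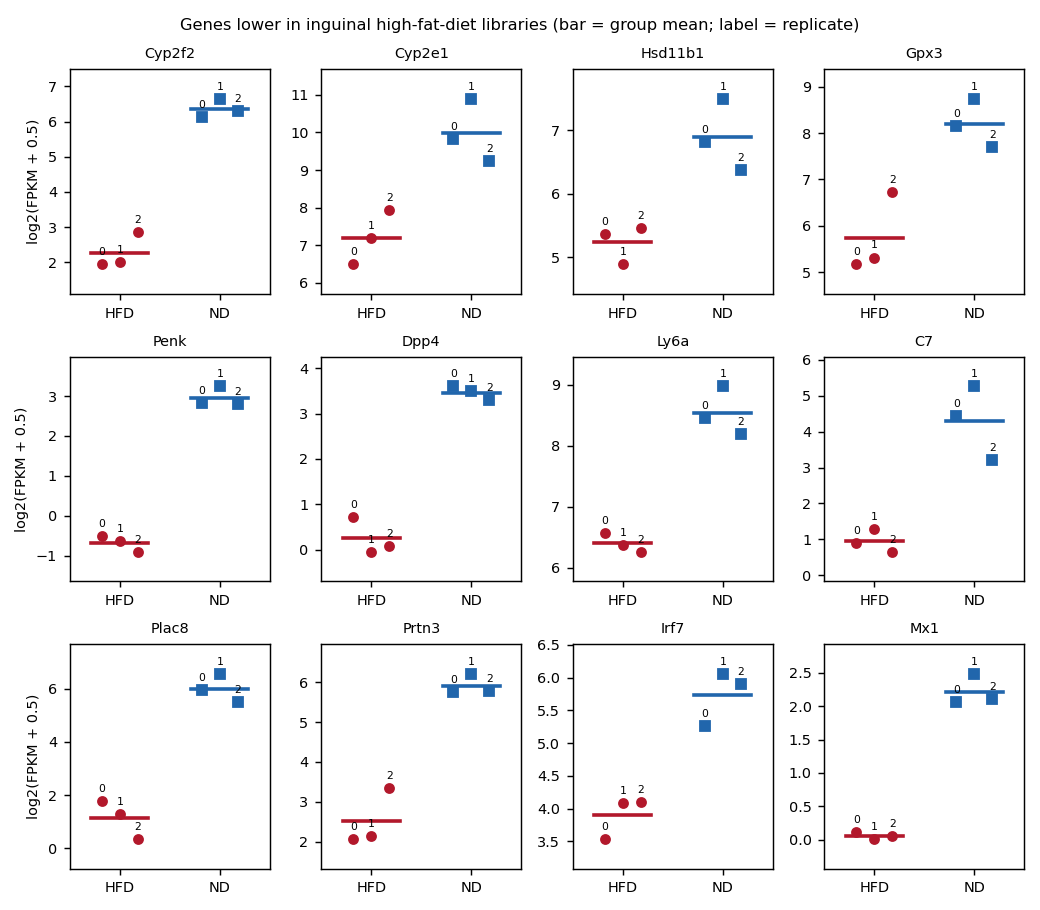
log2(FPKM + 0.5) of 12 genes called lower in HFD whose level in ND replicate 1 was not the lowest of the ND group, 1 point per library, HFD as red circles left of ND as blue squares, with the group mean as a bar and the replicate number beside each point. The groups do not overlap, and ND replicate 1 is the highest ND library for 11 of the 12 genes, Dpp4 being the exception.

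Markers of fibroblasts and adipocyte progenitors were highest in ND replicate 1 among the ND libraries for 13 of the 17 tested. Of these 17, 4 fell and 1, Col15a1, rose (median -1.03), and 7 were called lower and 1 higher against ND replicate 1 alone (median -1.33). Dpp4, a surface marker of interstitial progenitors, had 1.14, 0.473 and 0.558 FPKM in HFD libraries and 11.6, 10.7 and 9.30 FPKM in ND libraries (-3.21, SE 0.30, adjusted p = 0.0041), a call kept in all 6 leave-one-out fits. Ly6a, which encodes Sca-1, had 94.4, 82.4 and 76.4 FPKM in HFD libraries and 349, 501 and 290.4 FPKM in ND libraries (-2.13, SE 0.26, adjusted p = 0.010). Clec3b and Icam1 also fell. Pdgfra, the classic progenitor receptor, had 1.43, 1.70 and 0.856 FPKM in HFD libraries and 3.43, 14.2 and 2.49 FPKM in ND libraries. It did not pass over the 3 ND libraries (-1.63, SE 0.59, adjusted p = 0.13) but did against ND replicate 1 alone (-3.03, adjusted p = 0.0060). C7, a complement component of fibroblasts, and Inmt, an indole N-methyltransferase, were -3.36 (SE 0.50, adjusted p = 0.015) and -3.13 (SE 0.48, adjusted p = 0.016).

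Further genes named by the size of their fall, with ND replicate 1 not below the other ND libraries, were in no marker list. Of these, Slfn4 and Retnlg lay under 0.5 FPKM in every HFD library, so they could not have been called higher. Prtn3, the granule protease proteinase 3, had 3.69, 3.95 and 9.64 FPKM in HFD libraries and 53.9, 73.8 and 54.2 FPKM in ND libraries (-3.40, SE 0.36, adjusted p = 0.0071). Il1r2, the decoy receptor of interleukin 1, had 1.05, 0.442 and 0.530 FPKM in HFD libraries and 9.44, 28.4 and 9.12 FPKM in ND libraries (-3.61, SE 0.47, adjusted p = 0.012). Slfn4, of the Schlafen family, was -3.45 (adjusted p = 0.015). Retnlg, of the resistin family, was -2.79 (adjusted p = 0.032), kept its call in 2 of the 6 leave-one-out fits and was not called against ND replicate 1 alone (adjusted p = 0.14). Mup10, a major urinary protein gene of a family of near-identical copies, fell as well (-4.88, SE 0.61, adjusted p = 0.011; adjusted p = 0.094 against ND replicate 1 alone).

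Interferon-stimulated genes were lower in HFD, and ND replicate 1 was the highest ND library for 15 of the 20. Of 20 tested, 10 fell and 0 rose (median -1.22), and 13 were called lower against ND replicate 1 alone (median -1.64), 9 of them among the 10. Irf7, the transcription factor that amplifies type I interferon, had 11.1, 16.4 and 16.6 FPKM in HFD libraries and 37.9, 66.2 and 59.1 FPKM in ND libraries (-1.84, SE 0.27, adjusted p = 0.015). Mx1, an antiviral GTPase, had 0.586, 0.510 and 0.538 FPKM in HFD libraries and 3.65, 5.09 and 3.81 FPKM in ND libraries (-2.15, SE 0.29, adjusted p = 0.012). Stat2 and Irf9, partners in the factor that interferon activates, were 5.26, 5.95 and 6.26 FPKM and 5.19, 8.31 and 7.43 FPKM in HFD libraries, against 11.8, 14.2 and 16.6 FPKM and 18.8, 23.1 and 26.2 FPKM in ND libraries (-1.21 and -1.64, adjusted p = 0.025 and 0.015). The groups were separate for all 4 genes. The other calls were Ifit2, Oas1a, Oas2, Oasl2, Rsad2 and Usp18, and Isg15 and Ifit1 did not pass.

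The interferon-stimulated response element was searched for as GAAANNGAA on both strands in the 250 bases before the RefSeq start. It was found in 3 of the 7 called members with a promoter in the table, and in 8 of the 14 tested members with a promoter (57.1%), against 7.16% of all 27025 promoters. Oas1a held 2 overlapping matches, the first starting 20 bases before its start. Rsad2 and Stat2 each held 1 match on the minus strand, whose first base of the printed strand lies 119 and 221 bases before the start. The promoters of these 3 genes are shown, each on the strand of its gene, from RefSeq on GRCm38.p6, with the matches in capitals. They lie at chr5:120907526-120907775 on the minus strand for Oas1a, chr12:26456453-26456702 on the minus strand for Rsad2 and chr10:128270248-128270497 on the plus strand for Stat2.
Oas1a: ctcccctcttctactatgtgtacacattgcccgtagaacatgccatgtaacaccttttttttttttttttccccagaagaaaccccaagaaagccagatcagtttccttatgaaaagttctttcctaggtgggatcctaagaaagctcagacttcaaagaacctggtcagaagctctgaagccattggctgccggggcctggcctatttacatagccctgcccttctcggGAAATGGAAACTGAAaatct
Rsad2: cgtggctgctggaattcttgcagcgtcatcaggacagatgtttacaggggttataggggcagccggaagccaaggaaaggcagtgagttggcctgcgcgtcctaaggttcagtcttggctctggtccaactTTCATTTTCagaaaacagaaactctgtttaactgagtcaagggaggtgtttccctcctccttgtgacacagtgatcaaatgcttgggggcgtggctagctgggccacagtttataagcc
Stat2: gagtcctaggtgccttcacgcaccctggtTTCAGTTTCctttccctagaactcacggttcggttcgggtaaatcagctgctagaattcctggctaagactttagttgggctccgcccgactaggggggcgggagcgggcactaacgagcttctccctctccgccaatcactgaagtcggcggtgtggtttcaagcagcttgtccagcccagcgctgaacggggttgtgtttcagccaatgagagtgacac

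Of 16 endothelial markers, 3 fell and 0 rose (median -0.64), and 1 was called lower and 1 higher against ND replicate 1 alone (median -0.52). Plvap, the protein of fenestral diaphragms, had 5.30, 9.11 and 5.76 FPKM in HFD libraries and 30.8, 37.6 and 27.6 FPKM in ND libraries (-2.19, SE 0.26, adjusted p = 0.0092), and Vwf and Eng were -1.58 and -0.83. Pecam1 did not pass (-0.61, SE 0.25, adjusted p = 0.16). Of 11 pericyte and smooth muscle markers, Acta2 (1.81, SE 0.38, adjusted p = 0.037) and Mcam (1.57, SE 0.33, adjusted p = 0.038) rose and 0 fell, and neither was called against ND replicate 1 alone.

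Immediate early genes, which isolation of cells can also induce, had 5 of 24 higher and 1 lower (median 1.03), and 2 higher against ND replicate 1 alone (median 0.44). Atf3, a stress-induced transcription factor, had 31.1, 27.4 and 25.2 FPKM in HFD libraries and 2.01, 3.86 and 3.82 FPKM in ND libraries (2.97, SE 0.27, adjusted p = 0.0041) and was called in all 6 leave-one-out fits. Klf6, Dusp1, Btg2 and Egr2 rose by 1.35, 1.53, 1.01 and 2.20, and Myc fell (-1.11, SE 0.22, adjusted p = 0.031). Fos and Fosb, at 40.3 to 265 FPKM and 2.18 to 37.7 FPKM in ND libraries, did not pass.

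Other lists held few calls. Of 16 thermogenic genes (median 0.63, and 0.08 against ND replicate 1 alone), Otop1, a proton channel (2.93, SE 0.47, adjusted p = 0.018), Kcnk3 (1.30) and the glycerol kinase gene Gk (1.40) rose. Ucp1, the uncoupling protein of brown and beige fat, had 0.167, 1.18 and 36.1 FPKM in HFD libraries and 0.258, 3.29 and 1.62 FPKM in ND libraries, so 1 HFD library carried nearly all of it (0.92, SE 1.39, adjusted p = 0.71). Of 18 clock genes, 0 rose and 1 fell, and Per1 (0.26, adjusted p = 0.52) and Dbp (-0.63, adjusted p = 0.10) did not pass. Of 18 depot patterning factors, the homeobox gene Hoxc8 rose, as did Irx3 (1.44), and each kept its call in 1 of the 6 leave-one-out fits. Hoxc8 had 36.3, 43.8 and 47.2 FPKM in HFD libraries and 13.6, 21.4 and 16.2 FPKM in ND libraries (1.30, SE 0.23, adjusted p = 0.024). Of 24 lysosomal genes, the protease gene Ctsd, the acid lipase gene Lipa and Atp6v1a rose (median 0.47), and 0 were called higher against ND replicate 1 alone. None of 22 genes of the unfolded protein response (median 0.00, 0 at an unadjusted p under 0.05) or of 22 cell cycle genes (median 0.09, 1 at an unadjusted p under 0.05) passed in limma, and 0 were called with the spread of 12 white libraries. The heat shock list (1 of 14 higher), the citric acid cycle (1 of 19 higher), hypoxia (1 higher and 1 lower of 16) and skeletal muscle (1 of 7 higher) held 1 call each way at most.

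**Figure D5:**
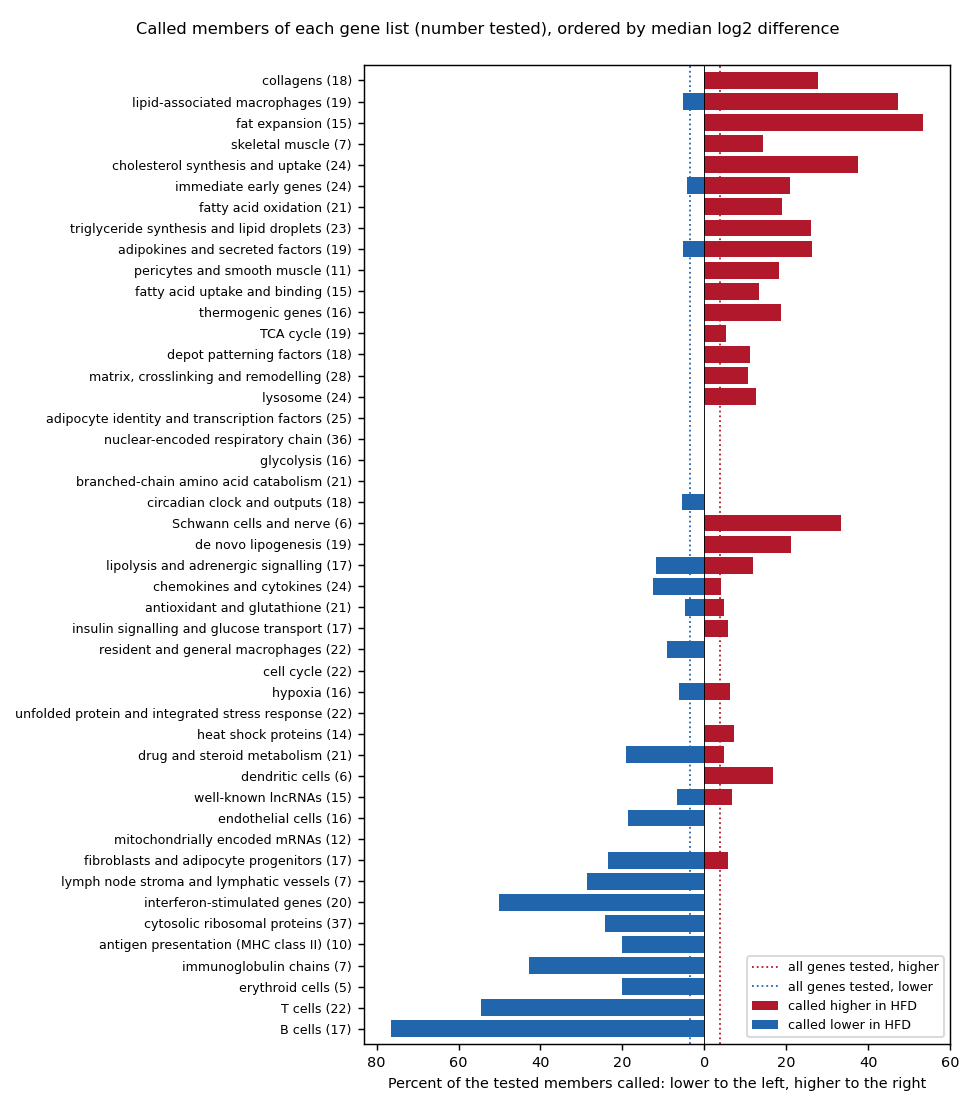
Percent of the tested members of each gene list called higher (red, to the right) or lower (blue, to the left) in HFD, with the number tested in parentheses, ordered by median log2 difference; lists with under 5 tested members are left out. Dotted lines mark the share among all genes, 3.73% higher and 3.58% lower. B and T cell markers lie at the low end, and collagens, lipid-associated macrophages and fat expansion at the high end.

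Of 431 lncRNAs tested, 7 were higher (1.62%) and 12 lower (2.78%), beside 3.73% and 3.58% of all genes. Gm5627 had 27.3, 28.2 and 28.1 FPKM in HFD libraries and 1.93, 3.48 and 0.175 FPKM in ND libraries (3.92, SE 0.59, adjusted p = 0.015). Ctcflos had 64.0, 74.3 and 72.7 FPKM in HFD libraries and 9.96, 26.8 and 10.4 FPKM in ND libraries (2.28, SE 0.37, adjusted p = 0.019), and Mir22hg, the host transcript of the microRNA miR-22, was 1.48 higher. The HFD libraries were tight for both Gm5627 and Ctcflos, and ND replicate 1 was the highest ND library. A630023P12Rik was listed at 0 in all HFD libraries and stood at 1.33, 1.85 and 6.56 FPKM in ND libraries, so it could not have been called higher. AU020206 (-2.48) and 2610035D17Rik (-2.36) were lower. Of 15 well-known lncRNAs tested, Snhg11 rose (0.98, adjusted p = 0.047) and Dleu2 fell (-1.47, adjusted p = 0.024), while Malat1, Neat1 and Meg3 did not pass. Whether the counting used strand is not given in the sources used here, so antisense and overlapping transcripts cannot be told from their partners.

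The diet difference was also set against that of epididymal adipocytes, the visceral white fat of the same study, with 3 libraries on each diet. The difference between the 2 diet effects, tested as an interaction over the 12 white libraries, was called for 1080 of 14959 genes (7.22%), 362 with a more positive difference in inguinal adipocytes and 718 with a more negative one. Leaving out inguinal ND replicate 1 gave 2627 calls, and leaving out 1 of the inguinal HFD replicates 0, 1 or 2 gave 672, 597 and 506. Without epididymal HFD replicate 0 or 1 there were 433 and 446, and without epididymal ND replicate 0 or 2 there were 592 and 615. Of the inguinal calls, 66 of the 518 higher and 224 of the 497 lower genes were among these. The diet difference of Mest was larger in inguinal than in epididymal adipocytes (4.82 against 2.11, interaction 2.71, adjusted p = 0.045). So were those of Oxtr (4.40 against 2.39, interaction 2.01, adjusted p = 0.0084) and Npr3 (2.43 against 1.34, interaction 1.09, adjusted p = 0.024). Mean inguinal and epididymal HFD levels were 457 and 422 FPKM for Mest, 46.9 and 65.6 FPKM for Oxtr, and 297 and 303 FPKM for Npr3. The ND means were 21.1 and 101 FPKM, 1.82 and 12.4 FPKM, and 55.4 and 119.6 FPKM, lower in inguinal libraries for each gene. Against ND replicate 1 alone the inguinal difference of Mest was 3.32. The interaction of Lep did not pass (0.51, adjusted p = 0.51), nor did those of Tph2 (-0.54, adjusted p = 0.56), Slc5a7 (-0.53, adjusted p = 0.59), Mmp12 (-0.16, adjusted p = 0.86) and Cyp2f2 (0.23, adjusted p = 0.79), which does not show that the depots respond alike. Gpnmb and Spp1 differed in the other direction: Gpnmb was 2.21 higher in inguinal and 6.11 higher in epididymal adipocytes (interaction -3.90, adjusted p = 0.0029), and Spp1 was -2.73 and 3.36 (interaction -6.10, adjusted p = 0.00099). Hoxc8 was 1.30 and -0.45 (interaction 1.75, adjusted p = 0.0091), and Dpp4 was -3.21 and -0.65 (interaction -2.56, adjusted p = 0.0066).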

How the data were processed

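Adipocytes were freed with collagenase, and their poly(A) RNA was read on an Illumina HiSeq, per the labels' protocols. The submitters' processing notes name TopHat2 2.0.9, Cuffdiff 2.1.1 and the mm10 build. Each deposited file holds FPKM by gene, the unit taken from Cuffdiff and the values. Annotation, strand setting and normalization are not given in the sources used here. Depth is unknown, so precision is that of the replicates. A value of 0 can be an estimate that Cuffdiff failed to make. Symbols were matched to 36638 of 38553 identifiers, and promoters and coordinates are those of RefSeq for GRCm38.p6 (mm10 is the same assembly).

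Genes at 0.5 FPKM or more in at least 3 of the 6 inguinal libraries entered limma 3.58.1 in R 4.3.3 (trended empirical Bayes, log2(FPKM + 0.5), 4 residual degrees of freedom), two-sided, with Benjamini-Hochberg adjustment over all of them. The interaction took the spread from 12 white libraries (8 residual degrees of freedom). The comparison with ND replicate 1 alone left out inguinal ND replicates 0 and 2. Its adjusted p values therefore do not reflect the spread within the inguinal ND group. The fit was tested on simulated data. The comparison and the 48 gene lists were chosen with earlier results of these data known, and support nothing independently.

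Genes were named by rule: up to 15 calls each way by size of difference (mean FPKM at least 2, groups separate); up to 15 lower calls with ND replicate 1 not below the others; up to 5 lncRNAs each way; up to 3 calls each way per list; 5 interaction calls each way; and 20 genes always. Other list members named were chosen after their values were seen. Counts over lists include genes that are not reported here by name. Settings varied were the pseudocount (0.1, 1), the filter (none, 2 FPKM), the scaling (TMM, quantile, non-mitochondrial), array weights, a block for the replicate number, a lymphocyte covariate, all 12 white libraries, ND replicate 1 alone, a fold of 2, and each library left out.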

Additional observations from a re-analysis of the deposited data

Results flagged for a closer look

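The diet effect differed between inguinal and epididymal adipocytes for 1080 genes by the interaction test in limma. The genes named for it with a more positive inguinal difference were Ndufa4l2 (4.18), Ppp1r14a (3.99), Rgs5 (3.94), Cox4i2 (3.61) and Kcnj8 (3.37), all on the log2 scale, inguinal minus epididymal, and Rgs5 and Kcnj8 are pericyte genes. In inguinal adipocytes Rgs5 had 62.5, 71.1 and 70.2 FPKM in HFD libraries and 40.1, 39.3 and 18.4 FPKM in ND libraries, without passing the test there (1.13, adjusted p = 0.069), and in epididymal adipocytes its diet difference was -2.81. Cox4i2, a subunit isoform of cytochrome c oxidase, was called higher in inguinal adipocytes (2.12) and was -1.50 in epididymal ones.

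The genes with a more negative inguinal difference were Spp1 (-6.10), Trac (-5.37), Il7r (-5.34), Cd22 (-5.27) and Sema4d (-5.23). Trac, Il7r and Cd22 are lymphocyte genes, and all 4 genes other than Spp1 were lowest in ND replicate 1 among the ND libraries. Il7r had 3.96, 2.95 and 3.19 FPKM in HFD libraries and 11.9, 3.18 and 36.6 FPKM in ND libraries, so ND replicate 1 lay within the HFD range. For Spp1 the ND libraries stood at 4.73, 11.8 and 10.5 FPKM, an order that does not follow the lymphocyte markers.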

How the results depend on the processing

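The counts of genes called moved with the libraries used and with the model. Leaving out 1 library at a time gave between 21 and 1711 higher and between 10 and 1590 lower calls, and between 433 and 2627 interaction calls. Without a filter on low values the counts were 182 higher, 84 lower and 695 for the interaction. Array weights gave 2238, 1800 and 2836, and the spread of 12 white libraries gave 1391 higher and 1523 lower. The lymphocyte level as a covariate left 0 higher and 0 lower calls in limma, with 1668 genes at an unadjusted p under 0.05. In that fit 515 of the 518 higher and 466 of the 497 lower genes kept their sign. The covariate itself did not overlap between the diet groups, so the loss of calls says little about lymphocytes. TMM scaling gave 605 higher and 530 lower, quantile normalization 583 and 424, and scaling without mitochondrial genes 570 and 488. The interaction split of 362 positive and 718 negative calls became 603 and 572 with quantile normalization and 607 and 549 without mitochondrial genes. No scaling moved the median of all genes by more than 0.1.

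With the lymphocyte covariate, 12 named genes changed sign: Ptprc (0.16), Ndufa4l2 (-0.73), Ppp1r14a (-1.33), Kcnj8 (-0.66), Il7r (1.77), Adipoq (-0.76), Fasn (-0.15), Scd1 (-0.38), Ucp1 (-1.49), Cd3e (0.22), Retn (-1.14) and Per1 (-0.25). With ND replicate 1 alone, 5 did: Il7r (0.06), Adipoq (-0.18), Scd1 (-0.01), Ucp1 (-0.14) and Retn (-0.58). Quantile normalization reversed Adipoq (-0.09) and Scd1 (-0.49), and leaving out 1 library at a time moved Ucp1 between -0.79 (without HFD replicate 2) and 2.10, and Retn between -0.09 (without ND replicate 0) and 0.56. The cause of these changes was not tested, and Cd3e and Il7r were themselves among the genes averaged into the lymphocyte covariate. Among the named genes, 76 lost their call without a filter, 41 with ND replicate 1 alone, 32 with the replicate block, 9 with quantile normalization, 8 with scaling without mitochondrial genes, 5 with each other pseudocount and 2 with TMM scaling. With the lymphocyte covariate 131 lost it with no change of sign.

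The groups share replicate numbers, and deviations of same-numbered HFD and ND libraries correlated at 0.302, 0.112 and 0.011, so the numbers were not taken to pair the samples. With the replicate number as a block, 373 genes were higher, 348 lower and 1152 called for the interaction.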
